A study of Mus musculus with 29 samples.

Results

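Mouse lymphoid-primed multipotent progenitors (LMPP) that lack the transcription factor IRF8 were set against LMPP that lack only an enhancer of its gene. Chromatin immunoprecipitation sequencing (ChIP-seq) of histone H3 acetylated at lysine 27 (H3K27ac) gave 4 libraries for this comparison, of 29 samples in all, 22 of them with a list of called regions. IRF8KO LMPP (2 libraries) came from IRF8-deficient mice and d56kb LMPP (2 libraries) from mice in which the Irf8 enhancer at +56 kb was deleted. All were C57BL/6 bone marrow cells sorted as Lin- Sca-1+ CD117+ cells with CD135 and without CD150 and IL-7R, and the sort was the same for wild-type (WT) LMPP. WT LSK cells (Lin- Sca1+ CD117+), the wider stem and progenitor compartment that contains LMPP, WT splenic cDC1 and d56kb granulocyte-monocyte (GMP) and monocyte-dendritic (MDP) progenitors served for reference, with 2 libraries each. The labels speak of duplicates without tying them to animals, so the spread between 2 libraries may be technical. They name the genotypes but neither the extent of the IRF8 lesion nor the ages of the mice.

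From each library the 15000 widest autosomal regions were taken and those of the 4 libraries merged where they touched. The result was 28943 merged regions in 4 classes. Regions in both libraries of one genotype and neither of the other are called IRF8KO-only or d56kb-only, regions in every library are called shared, and the rest held other patterns.

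H3K27ac marks the nucleosomes of active promoters and enhancers. IRF8 is a factor of the interferon regulatory family that binds DNA with partners such as PU.1 and is needed for cDC1 and for monocytes, while it restrains granulocyte production. Enhancers downstream of Irf8 raise its own transcription stepwise during myeloid development, and the element at +56 kb is one of them. LMPP stand before that rise and still carry lymphoid and myeloid potential.

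Promoter sequence is shown for 4 loci whose promoter window, 250 bases before to 50 after the start, lay whole inside a d56kb-only region. They are printed because they belong to antigen presentation, granule proteases, stem cell factors and the interferon response, groups described further on. All sequences are from RefSeq (GRCm38.p6), in the direction of the gene, and capitals mark a match to the interferon response motif (GAAA, any 2 bases, GAAA) or to the composite motif of ETS factors with IRFs (GGAA, any 2 bases, GAAA). Both strands were searched, and a stretch can match both.
H2-Eb1, chr17:34305617-34305916, plus strand: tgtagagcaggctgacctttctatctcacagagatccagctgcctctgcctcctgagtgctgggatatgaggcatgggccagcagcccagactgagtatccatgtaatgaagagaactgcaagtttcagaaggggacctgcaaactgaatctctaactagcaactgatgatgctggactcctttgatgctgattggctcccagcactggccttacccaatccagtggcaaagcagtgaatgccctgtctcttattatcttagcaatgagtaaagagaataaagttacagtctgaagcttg
Ctsg, chr14:56102525-56102824, minus strand: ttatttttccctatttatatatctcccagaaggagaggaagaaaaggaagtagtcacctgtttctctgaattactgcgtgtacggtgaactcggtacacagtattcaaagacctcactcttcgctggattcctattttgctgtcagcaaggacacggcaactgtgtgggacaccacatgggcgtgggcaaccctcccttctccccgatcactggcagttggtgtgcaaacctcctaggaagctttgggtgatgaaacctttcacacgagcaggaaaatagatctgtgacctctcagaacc
Hoxb4, chr11:96318017-96318316, plus strand: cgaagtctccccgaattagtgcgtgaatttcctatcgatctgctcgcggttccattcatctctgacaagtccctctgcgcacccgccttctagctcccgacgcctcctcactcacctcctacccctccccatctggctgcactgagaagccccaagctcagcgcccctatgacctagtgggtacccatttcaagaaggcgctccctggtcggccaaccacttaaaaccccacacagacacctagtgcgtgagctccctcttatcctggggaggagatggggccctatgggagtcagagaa
Rsad2, chr12:26456403-26456702, minus strand: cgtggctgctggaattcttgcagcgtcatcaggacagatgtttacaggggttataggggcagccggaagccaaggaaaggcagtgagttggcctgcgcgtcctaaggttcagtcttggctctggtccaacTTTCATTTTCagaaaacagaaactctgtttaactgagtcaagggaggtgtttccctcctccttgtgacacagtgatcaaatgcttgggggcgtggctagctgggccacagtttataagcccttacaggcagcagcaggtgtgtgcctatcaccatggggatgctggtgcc
Rsad2 encodes viperin, an interferon-induced antiviral protein. Its window held 1 match to the interferon response motif, on the opposite strand, beginning at base 131 of the printed run, and the windows of H2-Eb1, Ctsg and Hoxb4 held neither motif. Of 20085 RefSeq promoter windows of protein-coding genes on autosomes, 5.75% held a match to either motif. The share was 6.32% of 728 windows inside d56kb-only regions, 8.08% of the 359 inside d56kb-only regions that neither IRF8KO library listed at any width, and 4.77% of 4545 inside shared regions.

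The genotypes differed in depth, and the 2 pairs of libraries did not overlap. The IRF8KO libraries had 1258015 and 1469588 tags with 18.6% and 17.8% of them in called regions. The d56kb libraries had 3674998 and 2985206 tags with 36.8% and 38.1% in regions, and WT LMPP had 2000679 and 3646734 with 23.7% and 15.03%. The 15000 regions covered 13.6 ± 0.399 Mb in IRF8KO LMPP and 29.2 ± 1.23 Mb in d56kb LMPP (mean ± SD, n = 2). Genotype and depth cannot be told apart in these 4 libraries. Marker loci of LMPP, among them Flt3, Cd34, Kit, Dntt and Meis1, had covered bases in 9 of 9 cases in each of the 4 libraries, with summed levels of 131 to 139 scaled kb in IRF8KO and 140 to 154 in d56kb LMPP. Markers of other lineages were mixed. The B cell gene Cd79a and the T and NK cell genes Cd3e, Cd3g and Nkg7 had none in any of the 6 LMPP libraries. Lck, a T and NK cell kinase, had covered bases in all 6, with 3.21 and 2.14 scaled kb in IRF8KO, 6.06 and 6.41 in d56kb and 5.63 and 5.59 in WT LMPP. The B cell factor Ebf1 was covered in all but 1 IRF8KO library, and Pax5 in both IRF8KO and 1 WT LMPP library.

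The lists were also filled in unlike ways. Only 7944 and 8567 regions in the IRF8KO libraries were wider than the 501-base minimum of the caller, so 7056 and 6433 regions of exactly 501 bases filled the list. Ties were taken by chromosome and start. This kept them on chromosomes 1 to 8 in the first IRF8KO library and 1 to 7 in the second. The d56kb lists ended at 795 and 717 bases. The WT LMPP lists were also filled with ties, 3240 and 3115 regions of 501 bases, taken in the same order. Levels of WT LMPP in scaled kb, absent ones included, therefore depend on this order too. Of the classes, 84.4% of the IRF8KO-only regions but 26.1% of the d56kb-only regions lay on chromosomes 1 to 7, against 63.0% of all merged regions. Each class is therefore also given for regions that the other genotype did not list at any width, which removes this order on the side of the absent genotype only. Of the 75 IRF8KO-only regions so defined, 63 (84%) were still on chromosomes 1 to 7, and of the 1786 d56kb-only ones 43.4%.

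**Figure D1:**
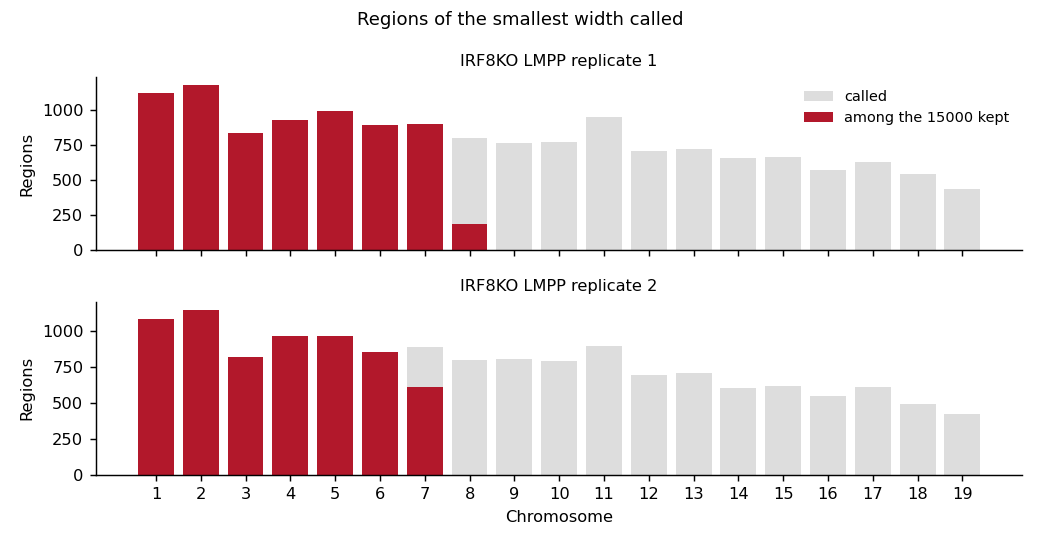
Number of regions of the smallest width, 501 bases, per autosome (x axis) in each IRF8KO LMPP library, as called (grey) and as kept among the 15000 widest (red). The kept ones end on chromosome 8 in replicate 1 and on chromosome 7 in replicate 2.

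More regions were held by enhancer-deleted LMPP alone than by knockout LMPP alone. The d56kb-only class held 3018 regions (10.4% of the merged regions), the IRF8KO-only class 179 (0.618%) and the shared class 6158 (21.3%). Of the d56kb-only regions 1786 (6.17%) were in no IRF8KO list, and of the IRF8KO-only regions 75 (0.259%) were in no d56kb list. With 2 libraries against 2 no exact permutation test can reach 0.05, so the counts have no test of their own. The direction held with all 501-base regions kept (1791 against 370) and with all left out (3945 against 40). With a library removed the class rests on a lone library, and the direction turned without a knockout library, to 5722 IRF8KO-only against 4360 d56kb-only regions without the first and 6029 against 4608 without the second. The covered bases of those 2 libraries had a Jaccard index of 0.318, against 0.616 for the d56kb libraries.

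Shared regions were narrower in the knockout. Over the 6158 regions, the median covered length was 1154 and 1226 bases in the IRF8KO libraries and 2168 and 2060 in the d56kb libraries. Both knockout libraries covered less than both d56kb libraries in 86.7% of these regions and more in 0.179%, and the median ratio was 0.569. Median widths were 783 bases for IRF8KO-only, 1671 for d56kb-only and 2435 for shared regions.

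Nearly all d56kb-only regions were regions of wild-type stem and progenitor cells. Among all called regions, both WT LSK libraries held 97.0% of the 3018 and both WT LMPP libraries 51.6%, while 17.3% were in neither WT LMPP library. The same shares were 59.3%, 38.2% and 48.7% over all merged regions. Over the regions of both d56kb libraries they were 99.1%, 80.7% and 5.84%. Only 10 of the 3018 were in none of these 4 wild-type libraries. For the 1786 in no IRF8KO list, 95.6% were in both WT LSK and 43.2% in both WT LMPP libraries, and 343 (19.2%) were in both LSK libraries and no WT LMPP library. Shared regions were in both WT LMPP and both WT LSK libraries in 96.3% of cases. Of the 179 IRF8KO-only regions, 60.9% were in both LSK and 24.6% in both WT LMPP libraries, and 46 (25.7%) were in none of the 4. Of these 46, 45 belonged to the 75 in no d56kb list. Restricted to the 15000 widest of each wild-type library, 71.4% of d56kb-only regions were in both LSK and 29.9% in both WT LMPP libraries, against 17.9% and 14.5% of IRF8KO-only regions. Over all merged regions these shares were 43.5% and 31.5%. The WT LMPP lists behind these shares included 501-base ties taken by chromosome and start, and the LSK lists did not.

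**Figure D2:**
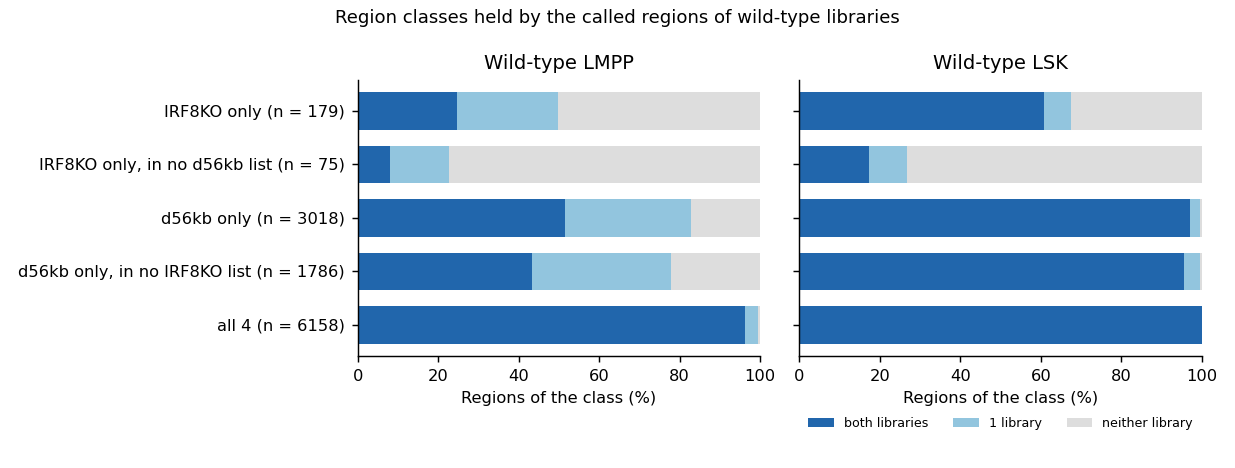
Share of each region class (x axis, percent) held by both, 1 or neither of the 2 WT LMPP libraries (left) and WT LSK libraries (right), among all called regions. Both LSK libraries held 97.0% of the d56kb-only regions, whereas 77.3% of the 75 IRF8KO-only regions in no d56kb list were in neither WT LMPP library.

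Loss from the lists was not limited to the knockout, and in IRF8KO and WT LMPP it fell with width. Of the 12104 regions in both d56kb LMPP libraries, 14.8% were in neither IRF8KO library, 5.84% in neither WT LMPP library and 0.116% in neither WT LSK library. The other d56kb progenitors lacked 10.6% (GMP) and 11.7% (MDP), and WT cDC1 lacked 25.6%. For IRF8KO LMPP the share was 41.8% of regions under 1 kb, 22.2% at 1 to 2 kb, 9.11% at 2 to 4 kb and 1.20% at 4 kb and over. WT LMPP, which had a lower share of tags in regions than d56kb LMPP, went from 18.0% to 0.0753% over the same widths, while WT cDC1 stayed between 21.6% and 27.2%. The part of depth in the d56kb-only class was not tested.

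**Figure D3:**
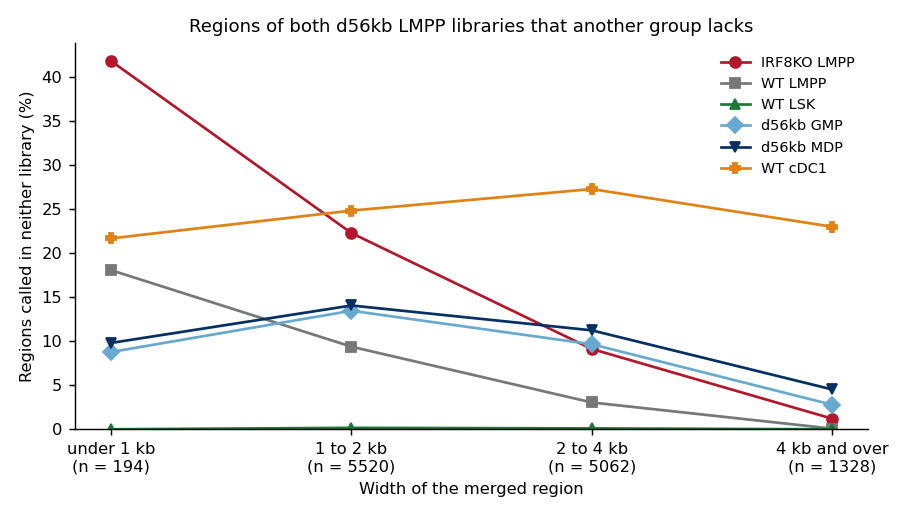
Regions of both d56kb LMPP libraries that neither library of another group called (y axis, percent), by width of the merged region (x axis, with the number of regions). The line of IRF8KO LMPP drops from 41.8% to 1.20%, that of WT cDC1 stays between 21.6% and 27.2%.

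The d56kb-only regions were mostly distal, as were all merged regions. Of the 3018, 27.3% lay within 1000 bases of a transcription start, 44.1% lay elsewhere in a gene and 28.6% between genes, and for the 1786 in no IRF8KO list the promoter share was 23.5%. Shared regions were at promoters in 61.0% of cases and all merged regions in 26.1%. Of the 179 IRF8KO-only regions 58 (32.4%) were at promoters. Of the 75 IRF8KO-only regions in no d56kb list 8 (10.7%) were at promoters, and 19 had no protein-coding gene within 100 kb, against 93 of the 1786.

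IRF8 binding was taken from peaks found in both IRF8 libraries of WT cDC1 (18971 peaks) or of WT bone marrow monocytes (CD117- CD135- Ly6G- CD115+, 4126). A cDC1 IRF8 peak lay in 19.9% of d56kb-only, 22.04% of shared and 8.94% of IRF8KO-only regions. It lay in 11.8% of all merged regions and in 20.6% of the regions of both d56kb libraries. Per Mb of merged region the order was another, with 107.6 regions holding a peak for d56kb-only, 73.3 for shared, 103.8 for IRF8KO-only and 79.9 for all merged regions. Monocyte IRF8 peaks lay in 5.77% of d56kb-only, 6.30% of shared, 3.35% of IRF8KO-only and 3.51% of all merged regions, and in 5.99% of the regions of both d56kb libraries. These shares follow width and place, so distal d56kb-only and shared regions were also compared within a width. At 1 to 2 kb, 195 of 925 distal d56kb-only regions in no IRF8KO list (21.1%) and 101 of 574 distal shared regions (17.6%) held a cDC1 peak. At 2 to 4 kb the shares were 21.6% (83 of 384) and 26.7% (332 of 1242), so their order turned between the 2 widths. A CEBPA peak of monocytes, the factor that drives granulocyte and monocyte commitment, lay in 19.5% of d56kb-only, 29.9% of shared, 7.26% of IRF8KO-only and 13.7% of all merged regions. For the regions of both d56kb libraries this share was 25.5%.

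The widest of the d56kb-only regions, 8806 bases at chr17:29495564-29504369, lay 3855 bases from Pim1, a cytokine-induced kinase, and its calls covered 8068 and 7508 bases in the d56kb libraries, 501 and 501 in IRF8KO, 3353 and 2847 in WT LMPP and 8339 and 8435 in WT LSK. Next was an intragenic region of Rab37, a GTPase of regulated secretion, at chr11:115153798-115160218, with 6421 and 4943 bases in d56kb and none in either IRF8KO library. WT LMPP had 2728 and 885 bases there and WT LSK 5553 and 5293. The others of the 10 widest lay at Hsp90aa1 (a chaperone), Vps37c (an ESCRT subunit), Clcf1 (a cytokine), Specc1l, Trabd, Bin2, Zmiz1 (a transcriptional coregulator) and Runx2, a RUNX factor active in bone and in plasmacytoid dendritic cells. In 9 of the 10 at least 1 IRF8KO library had a narrow call of 501 to 1002 bases, so only the Rab37 region was in no IRF8KO list.

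By number, Sgms1, a sphingomyelin synthase, came first with 9 d56kb-only regions, of which 5 were in no IRF8KO list. Zmiz1 had 7, and Runx2, Rftn1 (the lipid raft protein raftlin) and Rreb1 (a zinc finger factor downstream of RAS) had 6 each. Over all genes, 2300 had at least 1 d56kb-only region and 1484 had 1 that no IRF8KO list held.

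The widest IRF8KO-only regions carried little gene content. Of the 10, 5 had no protein-coding gene within 100 kb. The widest of all, 2836 bases at chr9:3028545-3031380, was 1 of 4 on chromosome 9 between positions 3004489 and 3036481, and the next, at chr2:98662279-98664420, held an IRF8 peak of both cDC1 and monocytes. WT LMPP libraries also held the first (1632 and 1286 bases) and the second (1504 and 885), whereas no LSK and no d56kb LMPP library did. Called regions were not filtered here for repeats or mapping artefacts, and whether these regions or their IRF8 peaks are such was not tested. The other 5 lay at Prkag2 (a regulatory subunit of AMP-activated kinase), Btbd9, Peli2, Siglece and Foxp1, the last a forkhead factor of lymphoid progenitors with a promoter region at chr6:99204720-99206388 covered over 501 and 1532 bases in the knockout libraries. Foxp1, Sec11a and Gpr107 had 2 IRF8KO-only regions each, and no gene had more. Among the genes of the fixed lists, 6 had 1: Batf3, S100a4, Bach2, Klf4, Mrc1 and Cebpa, in each case with calls of 501 bases in both knockout libraries. The d56kb libraries also called the regions of S100a4 (501 and 501 bases) and Cebpa (519 and 501), and 1 of them that of Batf3 (501). These calls were narrower than the widths at which the d56kb lists ended. The regions of Bach2, Klf4 and Mrc1 were in no d56kb list. Of all 11800 loci tested, 1.25% had an IRF8KO-only region.

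For a test over all loci, the covered bases of each library were summed per gene and scaled to the mean total, which is written here as scaled kb. IRF8KO minus d56kb was then fitted with limma over the 14 H3K27ac libraries, on log2(bases + 1000). Of 11800 loci 1031 were lower (8.74%) and 994 higher (8.42%) in IRF8KO LMPP at an adjusted p under 0.05. Without scaling, the split was 3448 lower and 408 higher and the median of all loci moved to -0.46, so a direction here is relative to the total covered length. The 501-base ties marked these calls too, since 19.98% of the lower but 78.9% of the higher loci were on chromosomes 1 to 7, against 48.7% of all tested. Of the lower loci 566, and of the higher loci 436, were also called when all regions entered, and 500 and 338 were called in that fit and with all ties kept. These calls are named below as kept in both. A log2 difference against a group at 0 depends on the pseudocount and is neither a fold change nor a bound, and the order of loci by such values depends on it too.

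Irf8 itself was among the lower loci. Its locus was listed at 0 in both IRF8KO libraries and at 3.31 and 2.08 scaled kb in d56kb, 2.15 and 1.95 in WT LMPP, so the groups did not overlap. Over all 11800 loci, 21.1% had groups of IRF8KO and d56kb that did not overlap with IRF8KO lower. The difference was -1.86 ± 0.36 (log2, limma estimate ± SE, adjusted p = 0.00799). The call ended when all 501-base regions were kept (adjusted p = 0.49) and when all called regions entered (-1.36, adjusted p = 0.17), and it held in 13 of 20 alternatives, with adjusted p between 0.000547 and 0.614.

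Around Irf8 the d56kb-only regions lay on both sides of the gene. One at chr8:120759739-120761030, 24.03 kb downstream of the start of the gene span, covered 1163 and 1203 bases in d56kb LMPP, 501 and 657 in WT LMPP and 762 and 785 in WT LSK, and no IRF8KO library called it. Another, 20.6 kb upstream at chr8:120714951-120716506, covered 1556 and 935 bases in d56kb and 640 and 0 in WT LMPP. At the deleted element, a window from 53 to 59 kb, WT LMPP had 809 and 642 bases and WT cDC1 2419 and 954. Both d56kb LMPP libraries had 0 there, as had the d56kb GMP and MDP libraries, and so had both IRF8KO LMPP libraries. The start of Irf8 had no call in either IRF8KO or WT LMPP library, 501 bases in 1 d56kb LMPP library and 2528 and 2725 in WT cDC1. In the rest of the gene body, calls covered 1503 and 0 bases in IRF8KO, 1503 and 1277 in d56kb and 501 and 0 in WT LMPP. None of these gene body calls was among the 15000 widest, so the 0 of the knockout locus is not an absence of calls. No IRF8 peak of cDC1 or monocytes overlapped the 4 d56kb-only regions around Irf8. An H3K27ac call does not report on the coding lesion of the knockout, so the IRF8KO label was not checked by these lists.

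Antigen presentation loci of MHC class II were lower in the knockout. Class II molecules present peptides to CD4+ T cells, and H2-Ab1, H2-Aa and H2-Eb1 encode their chains while H2-DMa and H2-DMb1 encode the peptide-loading chaperone. H2-Eb1 had 1.32 and 0 scaled kb in IRF8KO LMPP, 9.73 and 8.51 in d56kb and 7.44 and 9.03 in WT LMPP, a difference of -2.73 ± 0.32 (log2, limma, adjusted p = 0.000903). H2-Ab1 was at 0 in both knockout libraries and at 2.88 and 4.35 in d56kb, with 1.37 and 0 in WT LMPP (-2.19 ± 0.41, limma adjusted p = 0.00661). H2-DMa was at 0 in both and at 2.67 and 2.43 in d56kb and 3.45 and 3.93 in WT LMPP (-1.83 ± 0.15, limma adjusted p = 0.00019). In all 3 the knockout lay below both enhancer-deleted libraries, and the calls were kept in both settings. Without scaling 4 of the 4 tested class II genes were lower, in a setting where 3448 of all 11800 loci were lower and their median was -0.46. H2-DMb1 (-0.66 ± 0.39) did not pass, with 0 and 1.90 against 1.93 and 1.45. Each of the 5 genes had a d56kb-only region, as had 19.2% of all loci tested. That of H2-Eb1 was at its promoter (chr17:34303816-34306912, 0 and 0 bases in IRF8KO, 2024 and 1647 in d56kb, 501 and 501 in WT LMPP). The region of H2-Aa (chr17:34285967-34288652) was the only one of the 5 with an IRF8 peak, in both cDC1 and monocytes, and had 501 bases in 1 knockout library. The group was singled out from the pan-DC list after its values were seen. Over that list, 5 of 16 tested genes were lower (31.25%, against 8.74% of all loci) and none higher. The 2 others, Batf and Cd83, encode a dendritic and lymphoid cofactor and a maturation marker.

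MHC class I presentation had 4 of 12 tested genes lower (33.3%, against 8.74% of all loci) and none higher. They were H2-D1, Psmb9, Tap2 and Tapbp, a class I chain, an immunoproteasome subunit, a peptide transporter and its adaptor. The d56kb-only regions of H2-D1, Tapbp and the 5 class II genes lay on chromosome 17, between positions 33918842 and 35260148. Near neighbours such as these are not independent cases. Neither knockout list kept a 501-base region on that chromosome, and the share of all loci was not matched for chromosome. All 4 class I genes were also lower with all ties kept. Tap2 had 2.62 and 1.80 scaled kb in IRF8KO against 5.88 and 5.93 in d56kb LMPP. It was the only one kept in both settings, and no class I gene had a d56kb-only region free of knockout calls. The cDC1 list, which holds the genes of the lineage that most needs IRF8, had none of 15 past the threshold in either direction, with a median difference of 0 as over all loci. When all called regions entered, 2 were lower and 1 higher.

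Genes of hematopoietic stem cells and multipotent progenitors leaned to the d56kb side. Of 24 tested 6 were lower (25%, against 8.74% of all loci) and none higher, with a median of -0.20 against 0 over all loci. A d56kb-only region in no IRF8KO list lay at 10 (41.7%), against 12.5% of all loci. Angpt1, the ligand of the TIE2 receptor, had 0 and 1.42 scaled kb in IRF8KO, 9.54 and 8.87 in d56kb and 4.45 and 3.72 in WT LMPP, and the difference was -2.71 ± 0.40 (log2, limma, adjusted p = 0.00219). Hlf, a factor of stem cell maintenance, had 3.10 and 2.58 in IRF8KO, 7.23 and 5.54 in d56kb and 2.09 and 2.44 in WT LMPP, so the knockout values lay just above those of WT LMPP and the d56kb values above both. Gata2 and Hoxb4, 2 further stem cell factors, and Adgrg1 were kept in both settings as well. Msi2, an RNA-binding protein, fell from 26.9 ± 1.97 to 14.5 ± 0.0857 scaled kb (mean ± SD, n = 2), but not when all regions entered (limma adjusted p = 0.0588, in a range of 0.000311 to 0.13 over the alternatives). One d56kb-only region of Msi2, at chr11:88604706-88609447, had 2839 and 3172 bases in d56kb and 1896 and 2531 in WT LSK and no call in any IRF8KO or WT LMPP library. Levels of Flt3, the receptor on which LMPP were sorted, overlapped, at 33.1 and 26.2 scaled kb in IRF8KO, 24.7 and 30.0 in d56kb and 29.0 and 24.7 in WT LMPP (0.11 ± 0.19). Without scaling its difference was -0.94, with limma adjusted p = 0.0136 in a range of 0.0136 to 1 over the alternatives.

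Lineage transcription factors fell in 11 of 29 cases (37.9%, against 8.74% of all loci) and rose in none, with a median of -0.51. Of the 29, 12 (41.4%) had a d56kb-only region in no IRF8KO list, against 12.5% of all loci. Etv6, Fli1, Gata2, Id1, Runx2 and Runx3 were kept in both settings. Fli1, an ETS factor of stem cells and megakaryocytes, had 11.3 and 7.95 scaled kb in IRF8KO against 22.3 and 20.04 in d56kb and 20.3 and 18.4 in WT LMPP. Runx2 had 21.0 and 23.1 against 40.7 and 44.2, with 27.4 and 31.3 in WT LMPP, and its call ended when all ties were left out (limma adjusted p = 0.141, in a range of 0.00262 to 1 over the alternatives).

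Myeloid effector loci were low in the knockout. Csf1r, the receptor for macrophage colony-stimulating factor, was at 0 in both IRF8KO libraries, at 3.80 and 2.58 scaled kb in d56kb and at 2.74 and 3.48 in WT LMPP (-2.05 ± 0.20, limma adjusted p = 0.000395). The second knockout library did call 501 bases in a d56kb-only region of Csf1r, but no tie on chromosome 18 was kept. The lower call of Csf1r was kept in both settings. Prtn3, a granule protease, had 1.38 and 0 in IRF8KO, 6.50 and 3.45 in d56kb and 2.62 and 4.16 in WT LMPP. Ctsg, which encodes cathepsin G, was at 0 in both knockout, both WT LMPP and both LSK libraries and at 1.03 and 1.70 in d56kb. At its d56kb-only region neither WT LMPP library had a call of any width, so here d56kb LMPP stood above WT LMPP. The second LSK library called 688 bases there, but the LSK lists ended at 1317 and 1100 bases. The call of Ctsg ended with all ties kept (limma adjusted p = 0.0631, in a range of 0.000851 to 0.295 over the alternatives). Of 14 neutrophil and granule genes tested 3 were lower and none higher, and of 17 monocyte and macrophage genes 3 were lower and 2 higher, Mrc1 among them. The lower shares were 21.4% and 17.6%, against 8.74% of all loci. The higher share of the monocyte and macrophage genes was 11.8%, against 8.42%. Over the 7 granulocyte and monocyte markers fixed for the sort, summed levels were 0 to 2.74 scaled kb in IRF8KO, 9.81 to 13.6 in d56kb and 9.41 to 9.49 in WT LMPP. Elane, Ly6c2 and Ms4a3 were at 0 in all 6 libraries. The part of such cells in the sorted samples was not tested.

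Mast cell and basophil loci were called in both directions. Gata2, Hdc and Ms4a2 were lower and Cpa3 was higher, of 5 tested. Ms4a2, a chain of the high-affinity IgE receptor, was at 0 in both IRF8KO and both WT LMPP libraries, at 2.65 and 1.87 scaled kb in d56kb and at 2.38 ± 0.0861 in WT LSK (n = 2). Cpa3, a mast cell protease, was at 1.04 and 0.994 against 0 and 0 (limma adjusted p = 0.0293), but not called when all regions entered (adjusted p = 0.162, in a range of 0.0294 to 0.404 over the alternatives). Erythroid and megakaryocyte genes were lower in 2 of 10 cases, T and NK cell genes in 3 of 6 and B cell genes in 1 of 5, with Pax5 higher. The summed erythroid and megakaryocyte markers were 0 to 2.81 in IRF8KO, 5.77 to 7.58 in d56kb and 0.955 to 2.24 scaled kb in WT LMPP, with Gata1 and Klf1 at 0 throughout. Interferon response genes were lower in 1 (Rsad2) and higher in 1 (Socs1) of 16, and lymphoid priming genes lower in 2 and higher in 1 of 15. Of 8 IRF family loci 2 were lower, Irf8 among them, and the housekeeping list had Rpl13a lower of 10. Over all loci tested 8.74% were lower and 8.42% higher. The interferon response list (6.25% in each direction) and the housekeeping list (10% lower) lay near these shares.

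**Figure D4:**
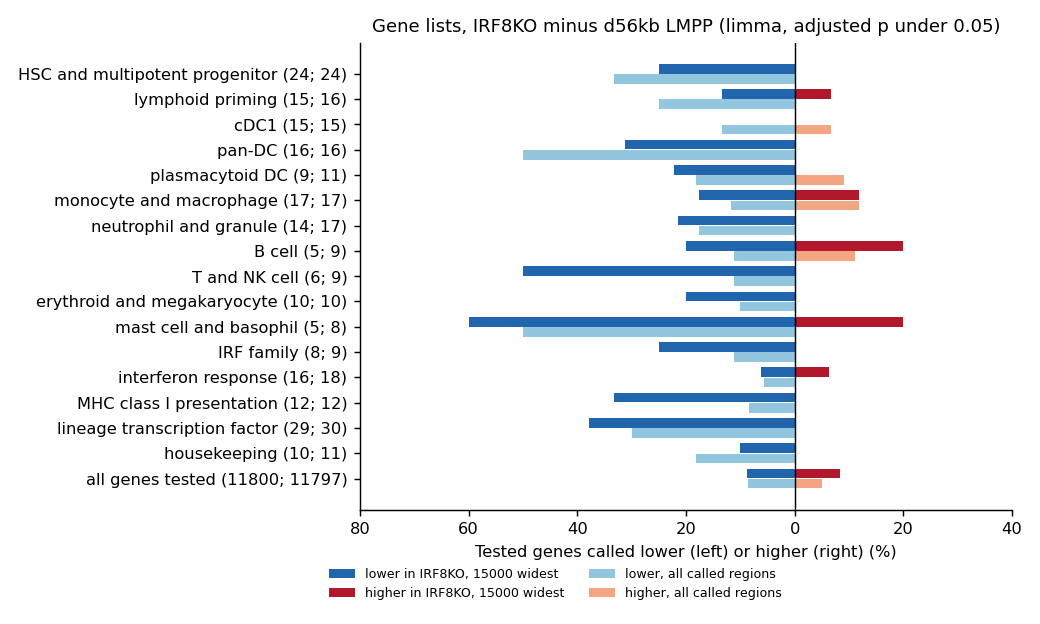
Tested genes of each list called lower (left, blue) or higher (right, red) in IRF8KO than in d56kb LMPP (x axis, percent, limma adjusted p under 0.05), with the 15000 widest regions (dark) and with all called regions (light). Numbers after each list are genes tested in the 2 fits, and the bottom bars show all genes, at 8.74% lower and 8.42% higher with the 15000 widest.

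The loci with the lowest values relative to d56kb were, in order, Mink1, Rftn1, Metrnl, Specc1l, Rab37, Slc16a12, H2-Eb1, Foxp4, Angpt1 and Hsp90aa1, all kept in both settings. Mink1, a kinase of the STE20 family, was at 0 in both knockout libraries, at 9.42 and 8.59 scaled kb in d56kb, at 4.43 and 2.38 in WT LMPP and at 11.4 ± 0.956 in WT LSK (-3.32 ± 0.35, limma adjusted p = 0.000565). Rftn1 had 0 and 1.45 against 11.5 and 11.5, with 5.41 and 4.57 in WT LMPP. In these 2 loci wild-type LMPP lay between the genotypes. Sgms1, with the most d56kb-only regions, had 11.3 and 14.1 in IRF8KO, 40.01 and 38.6 in d56kb, 20.3 and 26.8 in WT LMPP and 39.7 ± 2.58 in WT LSK.

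The 10 loci with the greatest rise included Ptprd, Auts2, Macrod2, Lrp1b, Dpp10, Dab1, Ntrk3, Tmem132d and Ptprt. These loci were at 0 in both d56kb libraries. Ptprd, a receptor phosphatase of synapses, had 11.4 and 8.95 scaled kb in IRF8KO and 2.98 and 0 in WT LMPP (3.47 ± 0.56, limma adjusted p = 0.00304). Its 20 knockout regions were each in 1 of the 2 knockout libraries and none was in both. The same held for 8 of the 10 genes, while Auts2 and Tmem132d had 1 region in both. All 10 lay on chromosomes 1 to 7 and none was called with the ties left out, where 3 had no value. Over all 994 higher loci 51.8% had a region in both knockout libraries, and over the 1031 lower loci 98.6% had one in both d56kb libraries, against 44.3% and 64.6% of all loci tested. Mrc1, the macrophage mannose receptor, was at 3.11 and 3.98 scaled kb against 0 and 0, and Pax5, the B cell identity factor, at 2.07 and 1.99 against 0 and 0, in 4 regions of which none was shared. A single 501-base region amounted to 1.036 and 0.994 scaled kb in the 2 knockout libraries. The levels of Mrc1 and Pax5 were whole multiples of these values, as from ties alone. The d56kb lists ended at 795 and 717 bases, so 501-base calls could not enter them. Both genes were also higher with ties kept and with all regions in. Over the alternatives the log2 difference ranged from 0 to 3.01 for Mrc1 and from 0.513 to 2.34 for Pax5. Sec11a, a signal peptidase subunit, was higher (3.94 and 4.63 against 1.37 and 0.734) with 3 regions in both knockout libraries, and was called with ties kept, left out and all regions in.

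**Figure D5:**
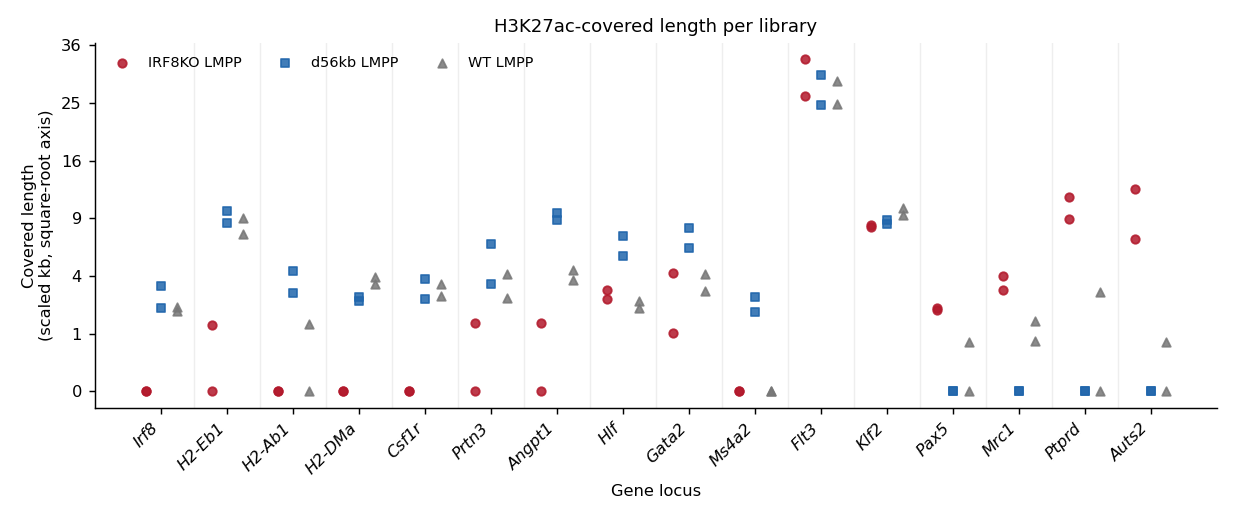
Covered length of H3K27ac regions at 16 gene loci (x axis) in each library (y axis, scaled kb on a square-root axis), 2 points per group for IRF8KO (circles), d56kb (squares) and WT (triangles) LMPP. Points at 0 mean that no region among the 15000 widest lay at the locus. From Irf8 to Ms4a2 the knockout points lie below the d56kb points, Flt3 overlaps, and from Pax5 to Auts2 the d56kb points are at 0.

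Region by region, the same fit over 25179 merged regions of the 14 libraries called 1822 lower (7.24%) and 702 higher (2.79%). Among 6094 shared regions 2.26% were lower and 9.21% higher, which is relative to the smaller total of the knockout libraries. Without scaling, 5006 regions were lower and 114 higher, and with all ties left out 2500 were lower and 1872 higher.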

How the data were processed

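Chromatin immunoprecipitation sequencing was done on 22 libraries of mouse cells, with 7 input DNA samples, and 14 of the libraries were for H3K27ac. Per the submitters' processing notes and the file headers, the authors aligned reads with Bowtie 1.1.2 to mm10 and called regions per library with HOMER 4.9. H3K27ac calls required 4.0-fold enrichment over input with peaks of 500 bases, and 501 bases was the smallest width. The deposited score of every region is 1, so width was the measure taken here. IRF8 peaks were called without input, per the file headers. The other deposited values per peak, tag counts and fold ratios included, were not used beyond library totals.

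The 15000 widest autosomal regions of each library (ties by chromosome and start) were merged where they overlapped by at least 1 base. A region went to the nearest protein-coding gene within 100 kb (RefSeq, GRCm38.p6), and promoters lie within 1000 bases of a start. Covered bases per gene or region were scaled to the mean total covered length and fitted with limma 3.58.1 (R 4.3.3, trend and robust) on log2(bases + 1000) for genes and log2(bases + 500) for regions. The fit took all 14 libraries in 7 groups (7 residual degrees of freedom), features covered in at least 2 libraries, and Benjamini-Hochberg adjustment at 0.05, and was tested on simulated data. Named genes were Irf8, the nearest genes of the 10 widest regions and the 5 genes with the most regions of each one-sided class, the 10 highest and 10 lowest called genes whose groups did not overlap, and list members, and a few of these are not reported here. Members and lists were chosen with earlier results of these data known. The selection of regions, ties, scaling, pseudocount, filters, gene assignment, libraries in the fit and a depth covariate were varied.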

Additional observations from a re-analysis of the deposited data

How the results depend on the processing

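Genotype and depth cannot be told apart, and whether a region absent from an IRF8KO list lay under the limit of its depth was not tested. Of gene loci, 408 were higher and 3448 lower without scaling, 612 and 517 with the 10000 widest regions, 625 and 644 with ties by order of the list, 486 and 583 in a fit of the 6 LMPP libraries, and 444 and 518 with the percentage of tags in regions as a covariate. With at least 4 libraries covered 599 were higher. A limma fit of the 4 libraries alone called 0 and 0 loci (2000 at an unadjusted p under 0.05) and 0 and 0 regions (4263), and the fit of 6 called 0 and 0 regions (3867). Of merged regions, 114 were higher and 5006 lower without scaling, 268 and 1124 with the covariate, 920 lower with the 10000 widest and 3092 lower with all called. Higher regions numbered 425 with no filter, 279 with all ties kept and 1872 with all ties left out. With 1 library left out, 487 to 1294 loci were higher and 594 to 1321 lower, and 338 to 897 regions higher and 1411 to 2209 lower. The lowest of these came without a d56kb library.

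The IRF8KO-only class held 474 regions with the 10000 widest, 370 with ties kept, 40 with ties left out and 75 when absence from every d56kb call was asked. The d56kb-only class held 1553, 1791, 3945 and 1786, and 5339 with all called. For IRF8KO-only regions the share in both WT LMPP libraries was 36.1% with the 10000 widest, 22.4% with ties kept, 30.7% with ties by list order, 4.52% with all called and 2.67% under absence from all calls. The share in both LSK libraries was 11.6% with the 10000 widest, 25% with ties left out and 6.67% under absence, and at promoters 64.6% with the 10000 widest, 7.74% with all called and 10.7% under absence. For d56kb-only regions the shares in both WT LMPP libraries were 32.2% (list order), 43.2% (ties kept), 22.5% (all called) and 24.9% (absence). In both LSK libraries they were 65.7% (10000 widest), 68.4% (list order), 66.6% (ties kept), 73.4% (ties left out), 82.1% (all called) and 66.8% (absence). At promoters they were 24.7%, 24.6%, 23.5%, 29.8%, 22.6% and 23.5% in that order, and 31.6% within 2500 bases of a start. With a cDC1 IRF8 peak they were 23.1% (10000 widest), 14.7% (all called) and 28.7% (peaks of either library). Leaving out 1 library gave 312 to 6029 IRF8KO-only, 4360 to 5235 d56kb-only and 6301 to 7743 shared regions. For IRF8KO-only regions the shares then ranged from 0.996% to 31.0% (WT LMPP), 2.83% to 35.9% (LSK), 5.08% to 43.1% (promoters) and 1.61% to 8.33% (IRF8 peaks). For d56kb-only regions they ranged from 19.7% to 41.8%, 54.4% to 76.6%, 23.04% to 32.0% and 15.9% to 19.4%.

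Among named genes, the sign turned for Cebpa (0.31, against -1.66 with the 10000 widest, -1.64 with ties left out and -1.16 with list order), Foxo1 (-0.25 with all called), Peli2 (-0.27, with a range of -1.06 to 0.52 when a library was left out, the latter without IRF8KO replicate 2) and Ywhaz (0.32 with ties left out). Without scaling it turned for Flt3 (-0.94), Prkag2 (-0.87) and Socs1 (-0.0397). The cause was not tested. Same-numbered libraries did not deviate together (correlation 0.0134 between IRF8KO and d56kb LMPP), and with a replicate block 930 loci were higher and 1003 lower, and 610 and 1638 regions.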
